A study of Homo sapiens with 6 samples.

Results

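The protein-coding histone genes of an RNA-seq data set from MDA-MB-231 cells were described across 6 libraries. They were taken by symbol from the authors' count table, as protein-coding genes whose symbol begins with H1-, H2AC, H2BC, H3C, H4C, H2AZ, H3-, H2AX, H2AJ, MACROH2A or H4-. This gave 55 of the 28675 genes in the table, of which 16579 were protein coding. Of the 55, 44 were replication-dependent genes of the histone clusters (H1-2, H1-4, the H2AC, H2BC, H3C and H4C genes and H4-16), here called clustered genes. They lie on chromosomes 1 and 6, apart from H4-16, which lies outside these clusters on chromosome 12, near H2AJ. The other 11 were replacement variants, among them the linker histone H1-10, the H2A variants H2AX, H2AJ, H2AZ1, H2AZ2, MACROH2A1 and MACROH2A2, and the H3 genes H3-2, H3-3A and H3-3B. H3-2 encodes a protein of the replication-dependent H3 type and was placed with the replacement variants by its symbol alone.

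MDA-MB-231 is an established human line from a triple-negative breast cancer. For the control group, 3 libraries were made from cells carrying a no-load control, and 3 more were made from cells of the same line overexpressing LARP6, a La-related RNA-binding protein. The labels give no vector, no promoter and no time after transfection or selection. Libraries were made from total RNA with a stranded mRNA kit and read in pairs of 150 bases, and the labels do not describe how the kit selects mRNA. The study asked what LARP6 binds and regulates in these cells.

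Histones package DNA into nucleosomes, each a core of H2A, H2B, H3 and H4 that is closed by a linker histone H1. Clustered genes are transcribed in S phase, when new DNA needs new nucleosomes, and their mRNAs normally end just after a conserved stem-loop that is bound by SLBP and carries no poly(A) tail. Replacement variants are made throughout the cell cycle from genes with introns or with ordinary poly(A) signals. Libraries of polyadenylated RNA are known to hold few reads of clustered genes for this reason, and some clustered genes also make transcripts that run past the stem-loop and gain a tail.

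LARP6 itself stood at 44.2, 40.7 and 43.3 CPM (read counts normalised for depth, on TMM-scaled library sizes) in the control libraries and at 1995, 2198 and 2131 CPM in the LARP6 libraries, as the labels state. Depth was 29409101 to 33387050 counts per library. Of the markers of the line, VIM was at 3151 and 3345 CPM (group means, control then LARP6), CD44 at 761 and 724 and MKI67 at 201 and 209, while ESR1, PGR and CD3E were under 0.2 CPM in each group. RN7SK and RN7SL2 were looked for by symbol among the counts and not found, so the share of RNAs without a poly(A) tail below leaves them out. PTPRC was at 0.354 and 0.379 CPM, PECAM1 at 5.68 and 5.73, and ERBB2 at 57.2 and 54.9. The listed RNAs without a poly(A) tail (232 genes: snRNA, snoRNA, scaRNA and the RNAs RN7SL1, RMRP, RPPH1, VTRNA1-1 and TERC) took 0.00428% to 0.00624% of the counts of a library. Their sum was highest in control library 3.

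The stem-loop is shown for 5 members because its place in the transcript separates the ends of histone mRNAs. Each line gives the 16 bases of the stem-loop in capitals with 5 bases on either side, 5′ to 3′, as DNA letters of the GENCODE v29 transcripts (GRCh38).
H2AC6: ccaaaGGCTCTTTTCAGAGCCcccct
H2BC21: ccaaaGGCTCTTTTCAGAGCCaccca
H2BC5: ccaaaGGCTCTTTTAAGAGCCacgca
H4C8: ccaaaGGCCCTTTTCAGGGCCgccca
H2AX: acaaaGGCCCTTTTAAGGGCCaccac
The form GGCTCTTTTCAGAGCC was found in 11 members of the H2A, H2B and H3 families. GGCCCTTTTCAGGGCC was found in 4 H4 genes, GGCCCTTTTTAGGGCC in 3 more H4 genes, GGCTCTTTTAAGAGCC in H2BC4 and H2BC5, and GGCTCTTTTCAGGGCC in H2AC11. H2AX was the replacement variant with a stem-loop (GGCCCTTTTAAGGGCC), and 1044 bases followed it in the longest coding transcript. No match was found in the other 10 replacement variants.

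Annotated transcripts of the clustered genes differed in how far they ran past this element. In 14 clustered genes at least 1 transcript went 100 bases or more beyond it: 1128 bases in H2AC6 and 1729 in H2BC21. In 7 genes every transcript with the element stopped within 100 bases of it, among them H2BC5 with 39 bases. In H4C8 the annotation held both kinds, with 18 bases after the stem-loop in one transcript and 1655 in another. In 21 genes, H2BC12 and H1-2 included, the annotated transcripts held no such element, and many models there cover little more than the coding sequence. H3C2 and H3C3 had no transcript in this annotation.

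Promoters of H2BC12, H1-10 and H2AC6 are shown as the 250 bases before the start in RefSeq (GRCh38.p14). H2BC12 and H1-10 were the 2 members called lower with LARP6 in the main test below, calls that depended on the processing. Capitals mark 3 motifs on either strand, with overlapping matches counted. The first is the TATA box, searched as the letters TATAAA. Another is the CCAAT box, searched as its 5 named letters. The last is the octamer of H2B promoters, ATTTGCAT. H2BC12 lies at chr6:27146859-27147108 on the minus strand, H2AC6 at chr6:26123922-26124171 on the plus strand and H1-10 at chr3:129316287-129316536 on the minus strand.
H2BC12: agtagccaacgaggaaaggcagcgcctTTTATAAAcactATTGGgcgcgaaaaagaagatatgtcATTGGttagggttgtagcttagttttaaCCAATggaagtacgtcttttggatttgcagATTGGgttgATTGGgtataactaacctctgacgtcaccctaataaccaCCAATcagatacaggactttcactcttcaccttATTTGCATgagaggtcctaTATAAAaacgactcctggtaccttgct
H2AC6: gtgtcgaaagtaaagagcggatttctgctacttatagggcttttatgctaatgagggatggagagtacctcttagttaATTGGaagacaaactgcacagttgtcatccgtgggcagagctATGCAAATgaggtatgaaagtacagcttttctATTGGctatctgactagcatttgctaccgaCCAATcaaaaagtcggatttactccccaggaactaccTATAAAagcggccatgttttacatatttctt
H1-10: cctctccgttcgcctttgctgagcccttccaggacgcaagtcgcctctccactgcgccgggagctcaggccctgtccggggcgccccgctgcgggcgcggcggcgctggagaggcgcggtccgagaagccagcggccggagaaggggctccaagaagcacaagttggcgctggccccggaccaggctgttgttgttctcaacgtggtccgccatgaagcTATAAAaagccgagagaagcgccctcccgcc
H2BC12 had 3 matches to the TATA box, 6 to the CCAAT box and 1 to the octamer. H2AC6 had 1, 3 and 1, and H1-10 had 1 match to the TATA box and none of the others. Over the 39 clustered members matched to a RefSeq promoter, 30 held the TATA box, 33 held the CCAAT box and 17 held the octamer. Those 17 were 8 of 12 H2A and 9 of 12 H2B promoters, and none of the H1, H3 or H4 promoters held it. Of the 9 replacement variants matched, 4 held the TATA box, 7 held the CCAAT box and 1 held the octamer. Among all 27305 promoters of the same length, the shares were 13.0% for the TATA box, 37.0% for the CCAAT box and 2.03% for the octamer.

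Replacement variants carried most of the histone reads. Clustered genes made up 6.99% of the counts of all members, and the summed CPM of the replacement variants was 13.0 to 13.6 times that of the clustered genes in each library. The median member had 13.3 counts per library among clustered genes and 5508 among replacement variants. As few counts fell on most clustered genes, counting alone gave the median clustered gene an error of 27.4% of its count in 1 library, against 1.35% for the median replacement variant. Of the 44 clustered genes, 19 had under 10 counts per library on average and 8 had 100 or more.

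**Figure D1:**
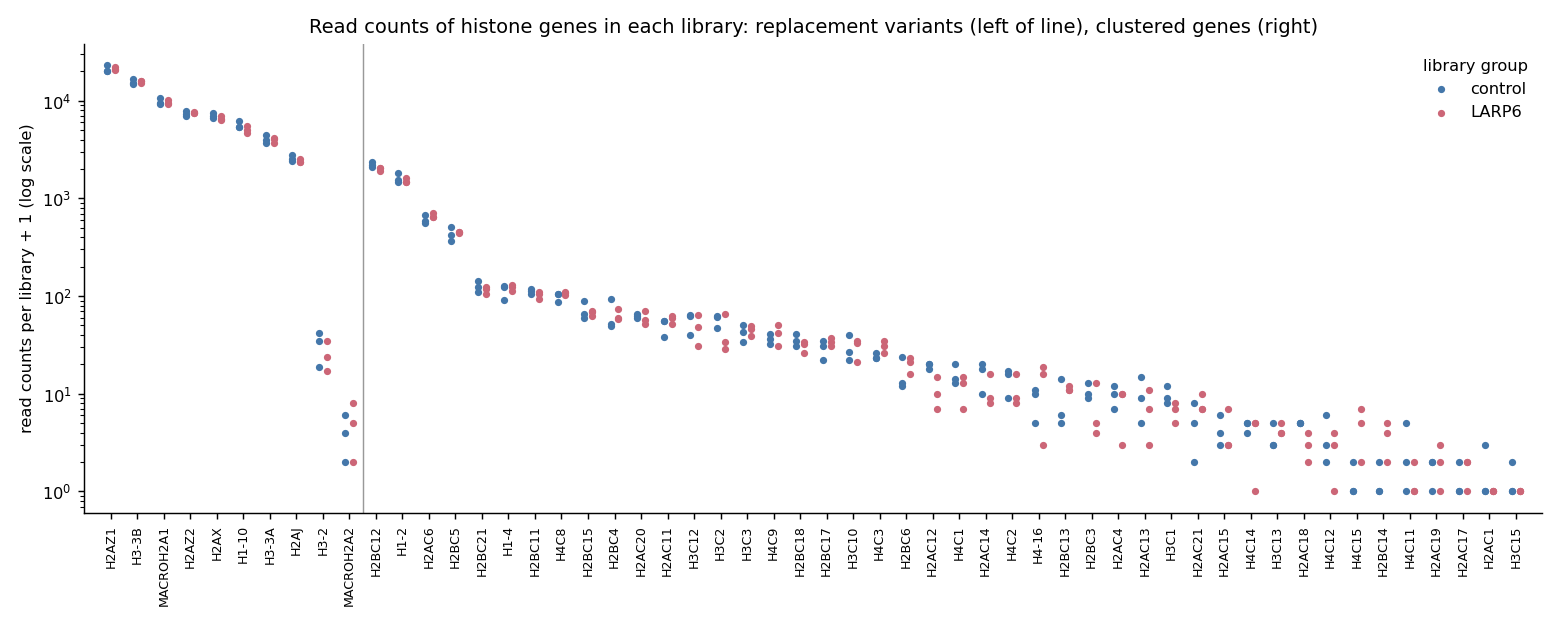
Each point is the read count of a gene in 1 library, plus 1, on a log axis, for replacement variants (left of the line) and clustered genes (right), each class in order of its mean count. Most replacement variants have higher mean counts than any clustered gene, and the clustered genes trail down from H2BC12 and H1-2 to single reads.

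Among the clustered genes, 4 held 80.8% of the clustered counts. H2BC12, an H2B gene at chr6:27146418-27146798, held 35.9%. The linker histone gene H1-2 at chr6:26055787-26056428 held 26.6%, the H2A gene H2AC6 at chr6:26124145-26139116 held 10.8%, and the H2B gene H2BC5 at chr6:26158146-26171349 held 7.49%. H2AC6 and H2BC5 are annotated with 2 exons, and their transcripts span far more of the genome than the coding sequence. Across the clustered genes, the 12 with more than 1 annotated exon had a median of 56.8 counts per library and the 30 with 1 exon had 8.42. Their ranges were 2 to 632 and 0.167 to 2112 counts, and H2BC12 and H1-2, with the most counts, have 1 exon. Genes with a transcript that ran 100 bases or more past the stem-loop had a median of 35.0 counts. The median was 7.33 for those whose transcripts with the stem-loop all stopped within 100 bases of it. The medians by stem-loop also hide wide ranges (0.167 to 632 counts in the first of these groups and 0.833 to 440.0 in the second). Gene length was not matched between groups in either comparison.

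H2A and H2B genes of the clusters often lie head to head, and 7 such pairs stood with 218 to 330 bases between their starts. Counts differed widely within some pairs. H2BC12 had 2112 counts per library and its neighbour H2AC12 had 14.0. H2AC6 had 632 and its neighbour H2BC4 had 63.0. The H2B gene had more counts in 5 of the 7 pairs and the H2A gene in 2. Some pairs rested on few reads, such as H2BC13 at 8.83 counts per library and H2AC13 at 7.33.

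Some clustered genes have near-identical copies. In the longest coding transcript of 31 of 42 clustered genes no stretch of 150 bases, the read length, occurred in the transcripts of another gene. In 10 genes at least 50% of such stretches were shared, for example between H2AC18 and H2AC19, between H4C14 and H4C15 and between H4C11 and H4C12. H2AC17, also among the 10, is not such a copy and shares its stretches with H3C12, which overlaps it on the same strand. Counts of these 10 genes were 0.167 to 12.5 per library, and 9 of the 10 had under 10. The same was true of 9 of the 31 genes with no shared stretch. How the authors' counter treated reads that match several genes is not given in the sources used here, so counts of these 10 genes are uncertain. H2BC12, H1-2, H2AC6, H2BC5, H1-10 and H2AX shared no stretch.

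Levels were compared between genes on scales per length. By the authors' FPKM (averaged over the 6 libraries), H2AZ1, a replacement H2A found at promoters, was highest at 267. It was followed by H2BC12 at 122, H2AX (the H2A variant that is phosphorylated at DNA breaks) at 121, the linker histone H1-10 at 100.4, H3-3B (1 of 2 genes for the replacement histone H3.3) at 73.0 and, further down, H1-2 at 61.1. The spread of H2BC12 and H2AX over libraries overlapped on this scale. Other replacement variants stood lower on this scale: H2AZ2 at 30.6, H3-3A at 30.0, H2AJ at 21.3 and MACROH2A1, a large H2A variant of silent chromatin, at 15.7. The length behind the FPKM of MACROH2A1, scaled to merged exon lengths, worked out at 17731 bases, where its longest coding transcript has 2789. Divided by the longest coding transcript, CPM per kilobase was 113 for MACROH2A1, 115 for H1-10, 126 for H2AJ, 137 for H2AX, 180 for H2BC12, 188 for H3-3B and 702 for H2AZ1. H2AZ1 was first on both scales, and the order below it depended on the gene model.

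**Figure D2:**
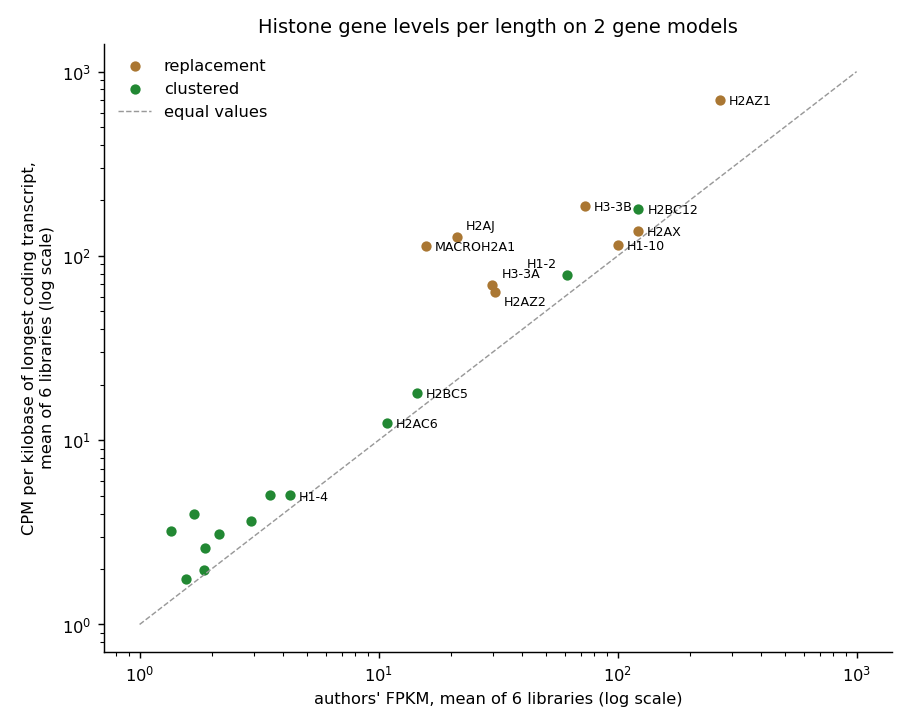
Each point is a histone gene, among those with a mean FPKM above 1, with the authors' FPKM on the x axis and CPM per kilobase of the longest coding transcript on the y axis, both means of 6 libraries on log axes. MACROH2A1, H2AJ, H3-3B, H2AZ1, H3-3A and H2AZ2 stand far above the line of equal values, and H2AC6 and H1-10 stand close to it.

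Summed levels differed little between the groups. The clustered genes summed to 191, 191 and 200.5 CPM in the control libraries and to 186, 187 and 189 CPM in the LARP6 libraries, a difference of -3.58%. The LARP6 libraries were all below the control libraries on this scale, while as a share of all counts (0.0189% to 0.0197% against 0.0188% to 0.0189%) the groups overlapped and the difference was -1.82%. Control library 3 was the highest for both classes of gene, and without it the difference in clustered CPM was -1.96%. The RNAs without a poly(A) tail were also highest in that library, at 48.2, 45.7 and 63.5 CPM in control libraries and 42.2, 46.3 and 44.0 CPM with LARP6, and so was RMRP at 5.45, 4.41 and 9.72 CPM against 3.58, 4.08 and 2.55. Their part in the clustered sum was not tested. In bulk RNA, fewer cells that transcribe a gene and less RNA per cell cannot be told apart.

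The replacement variants summed to 2498, 2542 and 2597 CPM in control libraries and to 2504, 2546 and 2545 CPM with LARP6. The groups overlapped, and the difference of -0.54% turned to 1.27% when only library size was used for scaling. H3-3A made up 19.5% to 21.1% of the reads of the 2 H3.3 genes, and H2AZ1 73.4% to 74.4% of the reads of the 2 H2A.Z genes, in all 6 libraries.

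Within the clustered class, sums by family and by annotated stem-loop differed in direction. The 12 clustered H2B genes summed to 102, 98.9 and 102 CPM in control libraries and 93.5, 95.7 and 94.2 CPM with LARP6, so all LARP6 libraries were lower, and H2BC12 supplied most of these reads. The 13 clustered H2A genes summed to 24.7, 24.1 and 26.6 CPM in control libraries and 26.4, 26.6 and 27.3 CPM with LARP6, with overlap. The 14 genes with transcripts that run 100 bases or more past the stem-loop summed to 36.5, 35.8 and 37.8 CPM in control libraries and 40.1, 38.8 and 38.6 CPM with LARP6. Here every LARP6 library was higher, and H2AC6 supplied most of the reads. The 7 genes whose transcripts with the stem-loop all stop within 100 bases of it summed to 15.2, 13.4 and 16.7 CPM in control libraries. With LARP6 they summed to 16.1, 15.4 and 15.1 CPM, with overlap. H2BC5 supplied most of these reads, and it also has a coding transcript of 789 bases without the stem-loop. The 21 genes without an annotated stem-loop summed to 136, 139 and 143 CPM in control libraries and 127, 129.8 and 132 CPM with LARP6, so that every LARP6 library was lower. H2BC12 and H1-2 supplied most of these reads, and the annotation does not show how transcripts of this group end. No test was made on these sums.

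**Figure D3:**
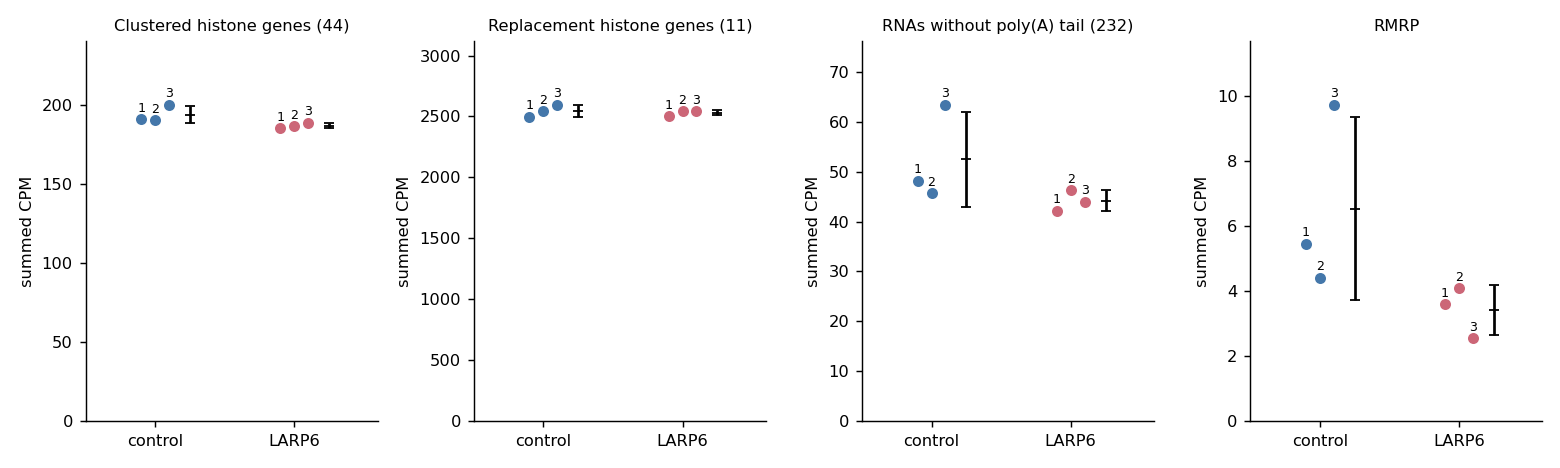
Points are summed CPM of each library (numbered by replicate) for the clustered genes, the replacement variants, the RNAs without a poly(A) tail and RMRP, with the group mean and SD as a bar beside them and all axes from 0. Control library 3 is the highest in every panel, and the 2 histone sums differ little between groups.

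Single genes were tested with edgeR's quasi-likelihood test across all 16226 genes that passed its low-count filter. Of the 55 members, 37 were tested, which were 27 clustered genes and 10 replacement variants. The other 18 (17 clustered genes and MACROH2A2) had too few reads. After adjustment over all genes 2 members were lower with LARP6 and 0 were higher, against a background in which 6.03% of all tested genes changed, 2.43% higher and 3.6% lower. DESeq2 called the same 2 members lower and 0 higher. At an unadjusted p below 0.05 edgeR gave 6 of the 37 tested members, where 19% of all tested genes had such a p. Those 6 were also the tested members with groups whose CPM ranges did not overlap (1 higher with LARP6 and 5 lower), where 22.3% of all tested genes had such groups. Neither count stood out from the background. The median log2 fold change was -0.01 over the tested clustered genes, -0.03 over the tested replacement variants and 0.0038 over all tested genes. The sign of the clustered median depended on the processing.

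**Figure D4:**
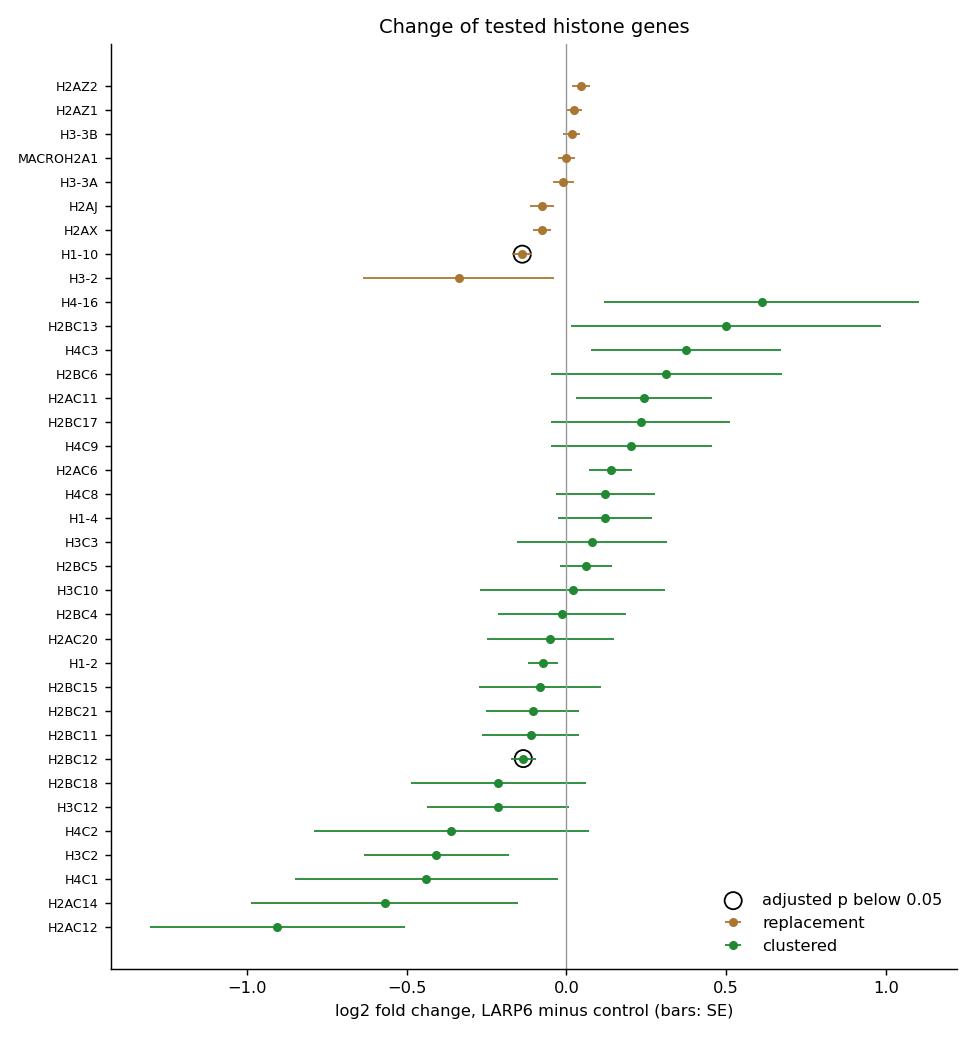
Log2 fold change of LARP6 minus control on the x axis, with its SE as a bar, for tested histone genes, replacement variants above and clustered genes below. Bars are short for the replacement variants (median SE 0.03 over the tested variants) and long for most clustered genes (median SE 0.23), and the circled genes are H1-10 and H2BC12.

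The linker histones H1 bind where DNA enters and leaves the nucleosome. H1-10, a replacement linker histone at chr3:129314771-129316277, was at 175, 180.2 and 187 CPM in the control libraries and 155, 166 and 173 CPM in the LARP6 libraries. All 3 LARP6 libraries were below all 3 controls. The mean dropped from 181 ± 6.03 to 164 ± 8.84 CPM (SD, n = 3 in both), and the log2 fold change was -0.14 ± 0.03 (SE), with an edgeR adjusted p of 0.00187. The call was lost without LARP6 library 1 (-0.10, adjusted p = 0.122) and when each library's trend with GC content and length was taken out (-0.05, adjusted p = 0.463). The GC content of H1-10 is 68.6%, where the median tested gene has 48.6%. An antisense gene, H1-10-AS1, overlaps it and was at 18.9, 17.4 and 18.8 CPM against 16.9, 14.3 and 16.8 CPM (log2 fold change -0.20 ± 0.07, edgeR adjusted p = 0.0948). The strand setting of the authors' counter is not given in the sources used here, so reads of the 2 genes cannot be told apart.

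The clustered linker gene H1-2 was at 47.7, 52.7 and 55.4 CPM against 48.7, 48.4 and 51.0 CPM. Its groups overlapped, and its log2 fold change of -0.07 ± 0.05 did not pass the test (edgeR adjusted p = 0.406). H1-4, also clustered, had a log2 fold change of 0.12 ± 0.15 (edgeR adjusted p = 0.719).

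Of the H2B genes, H2BC12 was at 72.5, 70.9 and 71.9 CPM in control libraries and 64.0, 66.9 and 65.2 CPM with LARP6. The 2 groups were apart by more than the spread within either. The mean dropped from 71.8 ± 0.843 to 65.4 ± 1.47 CPM (SD, n = 3 in both), with a log2 fold change of -0.13 ± 0.04 and an edgeR adjusted p of 0.0242. The call was lost when only library size was used for scaling (-0.11, adjusted p = 0.0868), with GC and length taken out (-0.04, adjusted p = 0.665) and without any single library other than LARP6 library 2 (adjusted p of 0.0505 to 0.157), while its values with 1 library left out were -0.15 to -0.12. H2BC12 has a GC content of 61.2%. This value and the length taken out come from an annotated transcript of 381 bases, while the length behind its FPKM was 495. H2BC5, which shares its family but has the stem-loop in its annotation, was at 13.9, 12.4 and 15.5 CPM against 14.9, 14.7 and 14.2 CPM, with a log2 fold change of 0.06 ± 0.08 (edgeR adjusted p = 0.743). The other 8 tested H2B genes ran from 0.136 to 4.66 CPM in single libraries, and none passed the test.

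H2A and its variants pair with H2B in the nucleosome core. H2AX at chr11:119093854-119095467 was at 231, 224 and 228 CPM in control libraries and 212, 215 and 221 CPM with LARP6. The groups did not overlap, and the log2 fold change of -0.08 ± 0.03 did not pass the test (edgeR adjusted p = 0.103). With GC and length taken out its value was 0.01, and its GC content is 66.4%. H2AJ, a variant with a slightly different tail, was at 82.1, 82.1 and 85.3 CPM against 79.8, 78.2 and 78.9 CPM, also apart (-0.08 ± 0.04, edgeR adjusted p = 0.259). With GC and length taken out the value of H2AJ was larger in size, at -0.11 (edgeR adjusted p = 0.0636), and its GC content is 42.6%.

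H2AC6 was the tested member whose LARP6 libraries all lay above the controls. It was at 19.1, 18.7 and 20.7 CPM in control libraries and 21.4, 20.97 and 22.1 CPM with LARP6. The log2 fold change was 0.14 ± 0.07, with an edgeR adjusted p of 0.244. Its transcript is AT-rich beside those of its family (42.0% GC, where the median clustered gene has 57.3%). Its values under the alternative settings ranged from 0.11 to 0.19, and none passed the threshold. H2AC12, the neighbour of H2BC12, had 17, 19 and 19 counts in the controls and 9, 6 and 14 with LARP6. The groups were apart on few reads (log2 fold change -0.90 ± 0.40, edgeR adjusted p = 0.178).

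**Figure D5:**
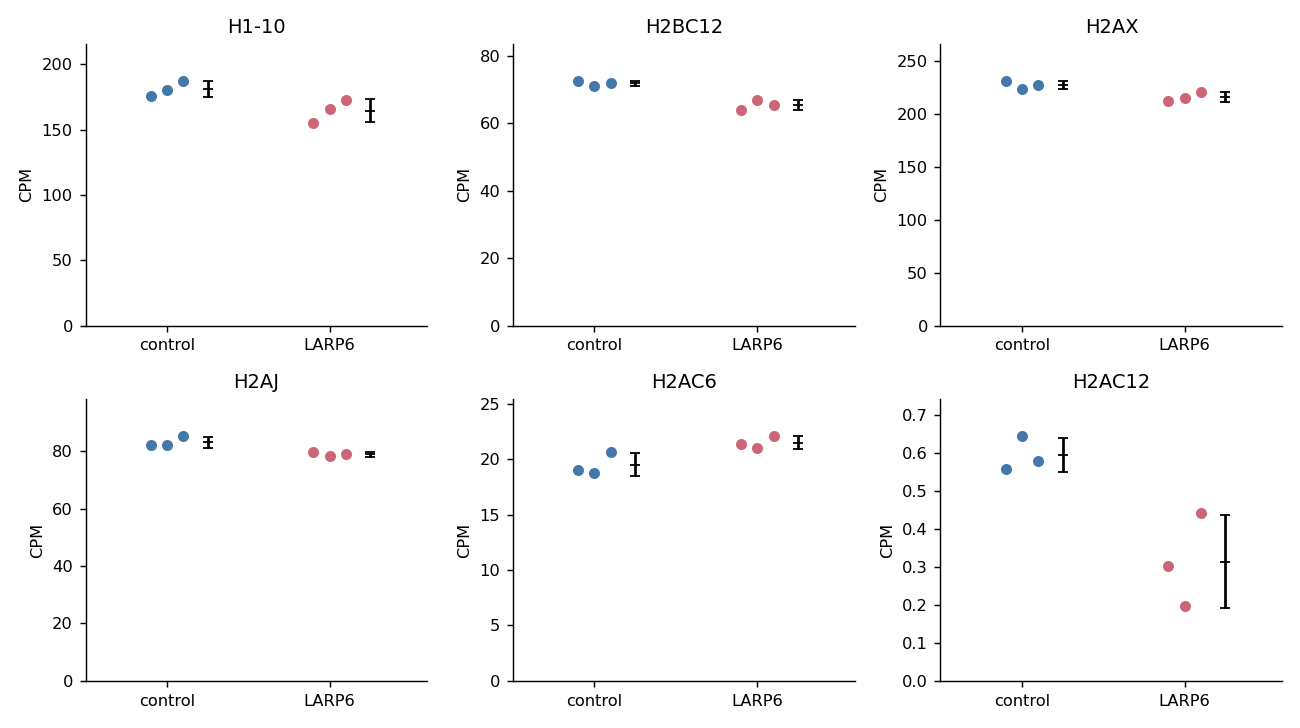
CPM per library of the 6 tested histone genes whose groups do not overlap, with the group mean and SD beside the points and y axes from 0. H2AC6 is higher in the LARP6 libraries and H1-10, H2BC12, H2AX, H2AJ and H2AC12 are lower, and the distance between groups is small beside the level except in H2AC12.

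The H2A.Z genes, whose product marks promoters and is exchanged outside replication, had groups that overlapped. H2AZ1 was at 660.2, 682 and 702 CPM in control libraries and 684, 699 and 695 CPM with LARP6 (log2 fold change 0.02 ± 0.03, edgeR adjusted p = 0.665). H2AZ2 was at 231, 245 and 241 CPM against 248, 248 and 244 CPM (0.05 ± 0.03, edgeR adjusted p = 0.382). MACROH2A1 averaged 316 ± 6.57 CPM in control libraries and 316 ± 5.42 with LARP6 (SD, n = 3 each), where edgeR gave an adjusted p of 0.999. Its relative MACROH2A2 had 1, 5 and 3 counts in the controls and 7, 4 and 1 with LARP6 and was not tested.

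The H3.3 genes H3-3A and H3-3B encode the same protein, which is laid down at active genes independently of DNA replication. H3-3B was at 501, 505 and 508 CPM in control libraries and 509, 523 and 499 CPM with LARP6 (log2 fold change 0.02 ± 0.03, edgeR adjusted p = 0.8). H3-3A was at 129, 126 and 136 CPM against 123, 133 and 132 CPM (-0.01 ± 0.03, edgeR adjusted p = 0.919). In both genes the groups overlapped. A share of 7.82% of the read-length stretches of H3-3A also occurs in other genes, a pseudogene among them.

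Clustered H3 and H4 genes had few reads and none passed the test. H3C2 was at 2.00, 1.56 and 1.83 CPM in control libraries and 0.938, 1.08 and 2.02 CPM with LARP6, where LARP6 library 3 was as high as the controls. Its log2 fold change was -0.41 ± 0.23 (edgeR adjusted p = 0.325), and without that library it was -0.83 (adjusted p = 0.0402). H3C3 was at 1.08 to 1.52 CPM in control libraries and 1.27 to 1.58 with LARP6. H4C8, the H4 gene with the most counts, was at 3.45, 2.88 and 3.17 CPM against 3.69, 3.48 and 3.18 CPM (0.12 ± 0.15, edgeR adjusted p = 0.733). The clustered H4 genes together summed to 6.73, 6.41 and 6.28 CPM against 8.17, 6.87 and 6.18, with overlap.

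The low-count filter passed between genes with similar totals. H2BC13 (53 counts over the 6 libraries) and H4-16 (58) were just inside it, and H2AC4 (46) and H2BC3 (48) were just outside. The 17 untested clustered genes had 0.167 to 8 counts per library. They were left out of the edgeR test.

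Genes that act on histone mRNA and histone protein were counted in lists. Of 29 genes for the 3′ end processing and decay of histone mRNA, 0 passed edgeR's test, 5 had an unadjusted p below 0.05 (19% of all tested genes) and DESeq2 also called 0. SLBP, which binds the stem-loop, was at 125, 135 and 131 CPM in control libraries and 127, 124 and 127 CPM with LARP6 (log2 fold change -0.05 ± 0.03, edgeR adjusted p = 0.475). The cleavage factor genes CSTF2T (0.15 ± 0.05, edgeR adjusted p = 0.0646) and CSTF3 (0.13 ± 0.05, edgeR adjusted p = 0.0848) had the smallest p of this list. Of 28 histone chaperone and deposition genes, 0 passed edgeR's test, 4 had an unadjusted p below 0.05 (again against 19%) and DESeq2 called 0. The H2A.Z chaperone gene ANP32E was at 110.3, 115 and 108 CPM against 117, 121 and 115 CPM (0.09 ± 0.03, edgeR adjusted p = 0.119), and EP400, a remodeller that deposits H2A.Z, had a value of 0.12 ± 0.05 (edgeR adjusted p = 0.152).

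Of 30 S phase genes, 4 fell and 0 rose by edgeR and by DESeq2, where 3.6% of all tested genes were lower by edgeR. An unadjusted p below 0.05 was found for 8 of the 30, against 19% of all tested genes. The replication licensing gene CDT1 fell from 63.9, 63.5 and 61.9 CPM to 56.9, 57.0 and 54.5 CPM (log2 fold change -0.17 ± 0.04, edgeR adjusted p = 0.00477). The helicase genes MCM5 (-0.14 ± 0.04, edgeR adjusted p = 0.00636) and MCM2 (-0.13 ± 0.04, edgeR adjusted p = 0.0102) and the transcription factor gene E2F1 (-0.11 ± 0.03, edgeR adjusted p = 0.023) also fell, and in all 4 genes the groups did not overlap. With GC and length taken out, MCM5 alone stayed called, and the values were -0.11 for CDT1 (adjusted p = 0.142), -0.09 for MCM2 (adjusted p = 0.113) and -0.05 for E2F1 (adjusted p = 0.491). The call of E2F1 was also lost with library size only (-0.09, adjusted p = 0.1) and without control library 1 or 3 or LARP6 library 1 or 2 (-0.11 to -0.09). Without LARP6 library 2 MCM5 (-0.13, adjusted p = 0.0531) and MCM2 (-0.12, adjusted p = 0.0901) were lost too, as were MCM5 without LARP6 library 1 (-0.13, adjusted p = 0.0545) and MCM2 without control library 2 (-0.12, adjusted p = 0.0652). PCNA, the sliding clamp of replication, was at 208, 223 and 221 CPM against 217, 220.0 and 227 CPM and was not called. The median log2 fold change was 0.0017 for the processing list, 0.01 for the chaperones and -0.0037 for the S phase genes. The part of S phase gene levels in the histone values was not tested.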

How the data were processed

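RNA-seq libraries of MDA-MB-231 cells (3 control, 3 LARP6) were grouped by their titles. The authors deposited whole-number read counts per gene, not normalized, and FPKM values, normalized by the authors for gene length and library size. Per the submitters' processing notes, HISAT2, DESeq2 and GRCh38 were used. The counting tool and its settings, and the release of the annotation, are not stated in the sources used here. The labels name no separate cultures, and the p-values therefore measure only how much these libraries vary, possibly for technical reasons. Chi-square per gene between libraries of a group was 2.06 to 3.62, so none was taken for a copy of another.

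Counts were tested with edgeR 4.0.16 in R 4.3.3 (filterByExpr, TMM, robust quasi-likelihood, no covariate), with Benjamini-Hochberg adjustment over 16226 genes and calls at adjusted p below 0.05. CPM were computed on TMM-scaled library sizes. The biological coefficient of variation, from the common dispersion over all tested genes and without counting error, was 3.23%. Alternatives were other scalings and filters, DESeq2 1.42.0, limma 3.58.1 on log2(FPKM + 1) and log2(FPKM + 0.1), a replicate block, GC and length offsets, and leaving out each library. The scripts were tested on simulated data. Transcripts and coordinates come from GENCODE v29 and promoters from RefSeq, which held 48 of 55 members by symbol. Single values of 1 replacement variant are not reported here. The length behind the FPKM was scaled so that the median gene matched its merged exon length (median ratio before scaling 1.13). After this scaling it was within 5% of the merged exon length for 81.0% of 6057 genes.

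The members, the gene lists and the tests were chosen with earlier results of these data known. The naming rule took LARP6, each member past the threshold, the 5 members of each class with the highest FPKM, both genes of each replacement pair, members at the filter's edge, SLBP, and from each list up to 4 called genes or the 2 with the smallest p. H2AX, H2AJ, H2AC12, H3C2, H3C3, H4C8, H2BC4, PCNA and other genes outside it were chosen after their values were seen.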

Additional observations from a re-analysis of the deposited data

Results flagged for a closer look

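H2BC20P, a transcribed H2B pseudogene outside the protein-coding members, had reads above the control level. It was at 44, 52 and 35 counts in the control libraries and 59, 58 and 67 in the LARP6 libraries, or 1.42 ± 0.348 against 2.00 ± 0.105 CPM (SD, n = 3 each), and the groups did not overlap. Its log2 fold change of 0.50 ± 0.21 did not pass the test across all genes (edgeR adjusted p = 0.167).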

How the results depend on the processing

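The edgeR test called 979 genes (395 higher, 584 lower). DESeq2 called 574, limma on FPKM 41 (plus 1) or 52 (plus 0.1), GC and length offsets 564, and leaving out 1 library 456 to 1040 (650 without control library 2, 459 without LARP6 library 1, 456 without LARP6 library 2). Scaling by library size only gave 990, of which 687 were higher and 303 lower. Clustered genes called went from 1 to 0 with library size only, with both FPKM fits and with GC and length offsets, and were 0 to 1 without 1 library; the 1 called without LARP6 library 3 was H3C2 in place of H2BC12. Replacement variants called went from 1 to 0 with both FPKM fits and with the offsets, and were 0 to 1 without 1 library (0 without LARP6 library 1). The processing list had 2 called (CSTF2T, CSTF3) with library size only and 0 to 1 without 1 library; the chaperones had 1 with library size only (ANP32E) and 1 with the offsets (NAP1L1); the S phase genes had 0 with both FPKM fits, 1 with the offsets (MCM5) and 1 to 4 without 1 library (2 without LARP6 library 1, 1 without LARP6 library 2). The cause of these differences was not tested.

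Libraries with the same replicate number deviated together with correlations of 0.099, 0.044 and 0.234 over 10072 genes, and control library 2 deviated most with LARP6 library 1 (0.069), so the numbers were not taken to pair the libraries. With the replicate block, 1345 genes were called, with 2 replacement variants (H1-10 and H2AX, adjusted p = 0.0413), 1 clustered gene (H2BC12) and 2 processing genes (CSTF2T and CSTF3).

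Of 382 values of named genes under an alternative, 342 kept their side of the threshold, 33 lost a call, 7 gained one and 0 reversed a called direction; in 18 a sign changed while neither value was called, the largest at 0.026 (log2). The clustered sum was lower with LARP6 under each alternative run for it, at -4.42% to -1.96% without 1 library. The difference was -5.85% per kilobase of coding transcript, a scale chosen after seeing the data. No sum was computed with GC and length offsets. With those offsets the log2 fold changes were -0.04 for H2BC12, 0.0024 for H1-2 and 0.12 for H2AC6, none called. Outside the 4 clustered genes with most counts, the other 40 summed to 37.0 and 36.4 CPM (group means, control then LARP6), with overlap. The replacement sum ran from -1.47% to 0.473% without 1 library. The median log2 fold change of the tested clustered genes was -0.0096 with DESeq2 and -0.082 without control library 1. It was 0.014 with library size only, 0.046 with GC and length offsets and 0.085 without control library 3. Depth limits the clustered genes most, since 19 of the 44 had under 10 counts per library.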
